A study of Mus musculus with 6 samples.

Results

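The genes described here carry symbols of families that make or run the ribosome. These are cytosolic ribosomal proteins, initiation and elongation factors, nucleolar assembly factors and subunits of the RNA polymerases. Some of the genes have other roles or are pseudogenes, as given below. All were chosen by symbol alone (Rpl, Rps, Rplp, Eif, Eef, Nop, Nol, Utp, Rrp and Polr, with the Rps6k kinases left out), and 62 of the 2387 genes in the deposited table matched. The table compares CD4+ cells of SRC2fl/fl/Foxp3YFP-Cre mice (3 libraries) with those of Foxp3YFP-Cre mice (3 libraries), each library from a different mouse. Naive CD4+ T cells of both genotypes were polarized toward Tregs for 36 hours with TGFβ and with antibodies to IL-4 and IFNγ before RNA was taken. The medium that the paper describes for Treg differentiation also held antibodies to CD3 and CD28. Both genotypes carry the Foxp3-driven Cre recombinase fused to YFP, and SRC2fl/fl/Foxp3YFP-Cre mice also carry floxed alleles of Ncoa2, the gene of the coactivator SRC2. Cre is made only in cells that turn on Foxp3, so Ncoa2 is deleted during the culture and not in the cells that remain Foxp3-negative. The age of the mice is not given in the labels. The paper's methods state a general age range for its experiments, with littermates matched by age and sex. In what follows, KO cells are those of SRC2fl/fl/Foxp3YFP-Cre mice and WT cells those of Foxp3YFP-Cre mice, after the sample titles.

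A ribosome is built in the nucleolus. RNA polymerase I transcribes the large ribosomal RNA precursor and RNA polymerase III the 5S RNA and tRNAs, whereas processing factors of the Nop, Nol, Utp and Rrp families cut, modify and fold the RNA while ribosomal proteins join it. Initiation factors then place the ribosome on an mRNA, and elongation factors feed it with tRNAs. A T cell that leaves quiescence builds many ribosomes, and the kinase mTORC1 and the transcription factor Myc are known drivers of this program.

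The values are the authors' mean counts per 1000000 reads (CPM) of each genotype. No value per library was analysed, so no SD can be given, no test between libraries was run, and the depth of each library is unknown. All 2387 rows had a P value below 0.05 in the deposited comparison. The rows are therefore genes already picked for a difference, and nothing was read from the absence of a gene of these families. In place of a test, a ratio of the means past a fold of 1.4, the fold of the study's volcano plot, was counted in each direction. With bulk RNA, a change in the share of a cell type and a change in the level per cell cannot be told apart.

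Most of these genes had a slightly higher mean in KO cells. Of the 62 genes, 56 were higher and 6 were lower, so 90.3% were higher, beside 69.2% of all rows of the table, whereas 30.8% of all rows were lower. The differences were small. The median log2 ratio of the 62 genes was 0.32, a ratio of 1.25, and that of all rows was 0.33. Past a fold of 1.4, 10 of the 62 genes (16.1%) were higher, beside 26.3% of all rows, and 3 (4.84%) were lower, beside 14.1% of all rows. Thus a smaller share of these genes than of all rows lay past the fold on either side, while a larger share of them lay on the higher side. The share past the fold on the higher side fell with level, and members had more reads, with a median of 66.45 CPM beside 31.97 CPM. Between 20 and 100 CPM, 16.2% of members were higher past the fold, beside 15.4% of all rows. At 100 CPM or more 6.67% were, beside 7.33%, and below 20 CPM 3 of 10, beside 48.8%. From 20 CPM up, these shares were thus close. On the lower side, the share of members was smaller at each level. The 56 higher genes lay between log2 ratios of 0.19 and 0.63, with the 10th and 90th percentiles at 0.23 and 0.57. Those percentiles were 0.26 and 0.88 for the 1652 higher rows of the table. Summed over the 62 genes, the means came to 9758 CPM in KO cells and 8034 CPM in WT cells, a ratio of 1.21, beside 1.06 for the sums of the other 2325 rows. When all log2 ratios were centred on the median of the table, 30 of the 62 genes were higher and the median became -0.0051. Centring puts equal numbers of all rows on each side by construction, and these rows were selected by P value. The centred count therefore restates only that the median ratio of these genes was close to that of all rows.

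**Figure D1:**
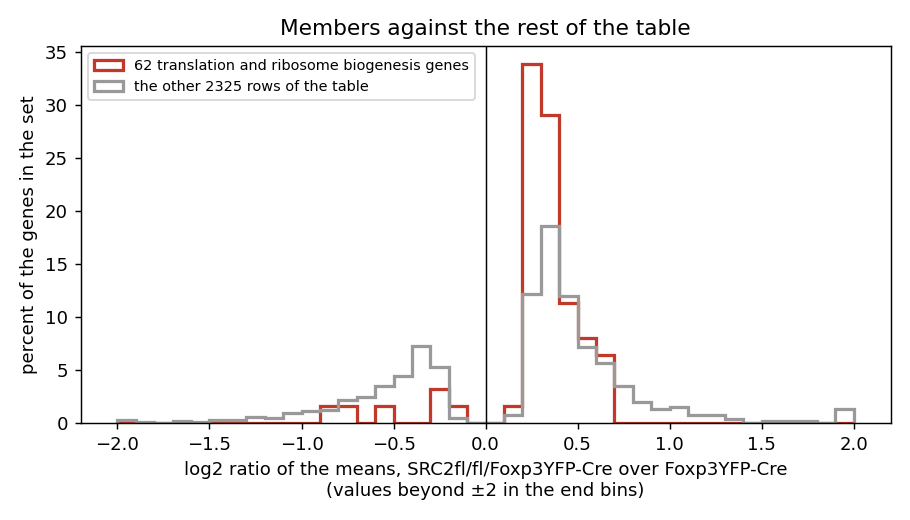
Percent of genes (vertical axis) by log2 ratio of mean CPM, KO over WT cells (horizontal axis) for the 62 translation and ribosome biogenesis genes (red) and the other 2325 rows (grey). The red outline is narrow, with 56 genes between 0.19 and 0.63, whereas the grey outline has wide tails on both sides. The sets were not matched by CPM.

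Transcript length moved with direction across the whole table. The 2346 rows with a transcript in GENCODE M21 were parted by length into 5 classes of nearly equal number. In the shortest class, from 204 to 1769 bases, 81.1% of rows were higher in KO cells, and in the longest class, from 4955 to 16144 bases, 52.2% were. The translation genes are short, with a median of 1270 bases against 3180 bases for all rows, and 39 of the 61 with a transcript fell in the shortest class. There, 37 of 39 were higher, beside 344 of the other 431 rows (79.8%). In the next 2 classes all 12 were higher, beside 73.4% and 72.8% of the other rows. In the class from 3706 to 4953 bases 5 of 8 were higher, beside 66.8%, and in the longest 1 of 2. Other short transcripts of the table thus also tended to the higher side, and the part of length in the direction of the translation genes was not tested.

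**Figure D2:**
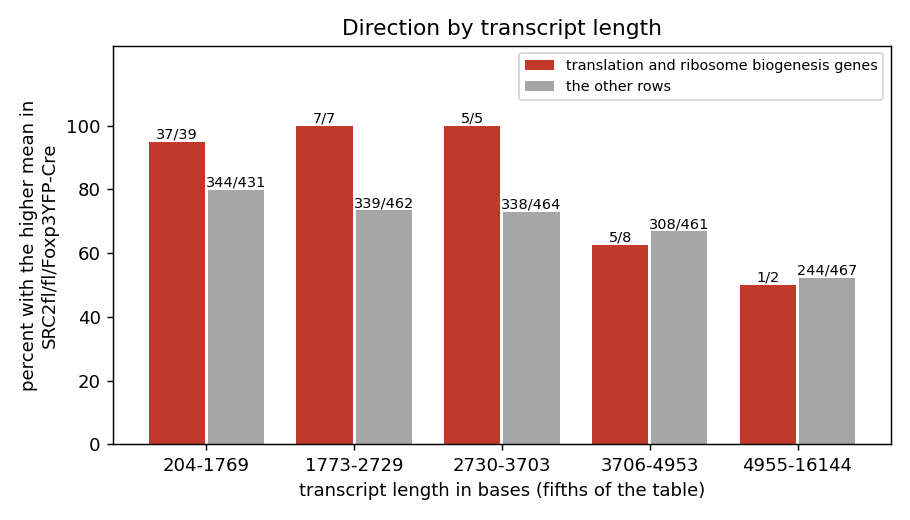
Percent of genes with the higher mean in KO cells (vertical axis) by 5 classes of transcript length in bases (horizontal axis), for the translation and ribosome biogenesis genes (red) and the other rows (grey), with counts above the bars. The grey bars step down with length, 79.8% in the shortest class and 52.2% in the longest, and the red bars of the last 2 classes rest on only 8 and 2 genes.

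All 17 ribosomal protein genes in the table were higher in KO cells, 13 of the large 60S subunit and 4 of the small 40S subunit, beside 69.2% of all rows. All 17 fell in the shortest length class, where 79.8% of the rows that are not members were higher. Their summed means were 4233 CPM in KO cells and 3481 CPM in WT cells, a log2 ratio of 0.28. Rpl13a, a 60S protein, took more reads than any other row of the table, with 1666 CPM in KO cells and 1428 CPM in WT cells, a log2 ratio of 0.22. It lies on the minus strand of chr7:45125558-45128761 in GRCm38. Without Rpl13a the log2 ratio of the sums was 0.32, so the sum does not rest on this gene. Rplp1 and Rplp2 form the acidic stalk that recruits elongation factors to the 60S subunit. Rplp1 had 700.5 CPM in KO cells and 544 CPM in WT cells, and Rplp2 had 97.3 CPM in KO cells and 80.8 CPM in WT cells.

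The largest log2 ratios of the 60S genes were those of Rpl36a and Rpl17, both past the fold of 1.4. Rpl36a had 26.8 CPM in KO cells and 18.5 CPM in WT cells, a log2 ratio of 0.53. Rpl17 had 82.1 CPM in KO cells and 57.5 CPM in WT cells, a log2 ratio of 0.51. The other 60S genes lay between 0.21 for Rpl6 and 0.39 for Rpl31. They include Rpl11, which also restrains the p53 ligase Mdm2, with 0.36, and Rpl22l1, the paralog of the T cell developmental gene Rpl22, with 0.35. Rpl19, Rpl12, Rpl27a and Rpl28 had log2 ratios of 0.37, 0.27, 0.25 and 0.23. The 60S genes in the table thus differed by similar small ratios over a wide range of CPM. Rows were selected by P value, and the lowest log2 ratio of any higher row was 0.176. The part of this selection in the likeness of the ratios was not tested.

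Of the 40S genes, Rps10 alone was past the fold. Rps10, a protein of the 40S beak, had 66.7 CPM in KO cells and 43.6 CPM in WT cells, a log2 ratio of 0.61. Rps6, the substrate of the S6 kinases that act below mTORC1, had 136.8 CPM in KO cells and 108.4 CPM in WT cells, a log2 ratio of 0.34. Rps18 took the most reads of the 40S genes, with 487 CPM in KO cells and 399 CPM in WT cells. Rps27a, made as a fusion of ubiquitin and a 40S protein, had a log2 ratio of 0.25.

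The sequence at the start sites was examined next, which the choice by symbol did not use. The mRNAs of ribosomal proteins and of several translation factors are known to begin with a run of pyrimidines, through which mTORC1 controls their translation. RefSeq promoter windows of GRCm38.p6 were matched to 39 of the 62 genes. Between 10 bases before and 20 bases after the annotated start, on the coding strand, 12 of 14 ribosomal protein genes (85.7%) held a run of at least 7 C or T. This was so for 8 of the 25 other members (32.0%) and for 20.5% of the 27025 genes with a window. The threshold was chosen after the windows had been seen. The windows below, each of 30 bases, show the longest such run in capitals, for genes with a run and, last, for Rpl36a, Rpl6 and Eif4a1, which have none of that length. In GRCm38.p6 they lie at chr4:86857348-86857377 (Rps6, minus strand), chr17:27635225-27635254 (Rps10, minus), chr17:33955646-33955675 (Rps18, minus), chr7:141447641-141447670 (Rplp2, plus), chr7:109519185-109519214 (Rpl27a, plus) and chr7:45128726-45128755 (Rpl13a, minus). The others are chrX:94212632-94212661 (Eif2s3x, minus), chrX:134585644-134585673 (Rpl36a, plus), chr5:121204491-121204520 (Rpl6, plus) and chr11:69672404-69672433 (Eif4a1, minus).
Rps6: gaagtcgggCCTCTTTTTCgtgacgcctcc
Rps10: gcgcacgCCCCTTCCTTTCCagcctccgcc
Rps18: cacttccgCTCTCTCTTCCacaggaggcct
Rplp2: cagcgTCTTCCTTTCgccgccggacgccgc
Rpl27a: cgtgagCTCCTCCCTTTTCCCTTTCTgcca
Rpl13a: cctgcgacaagaCCTCCTCCTTTCCCaggc
Eif2s3x: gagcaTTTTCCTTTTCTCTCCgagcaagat
Rpl36a: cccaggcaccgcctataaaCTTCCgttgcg
Rpl6: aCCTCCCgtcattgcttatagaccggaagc
Eif4a1: gtaacgTCacgtcgagttgcagagcgccgg
Rpl36a, without such a run, had a log2 ratio of 0.53, and Rpl27a, with a run of 20 bases, one of 0.25, so the length of the run did not order these genes by their difference.

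Promoter windows of 300 bases, from 250 before to 50 after the start, were searched for 4 motifs on both strands. CCGGAAG, the core bound by ETS factors, stood in 15 of the 39 members (38.5%), in 22.4% of the 1822 genes of the table with a window and in 9.93% of all genes. It stood in 9 of the 14 ribosomal protein genes and in 6 of the 25 other members (24.0%), the latter near the share of the table. CACGTG, the E-box that Myc and related factors bind, stood in 6 of 39 (15.4%), in 237 of the 1822 genes of the table and in 8.09% of all genes. The palindrome of the factor ZBTB33 stood in 3 of 39 (7.69%), Nol9, Rpl12 and Rps6, in 1.04% of the genes of the table and in 0.525% of all genes. AAAGGTCA, the site of NR4A monomers, stood in none of the 39 and in 1.70% of all genes, which says only that these letters are not in these windows. The windows of Polr2h, whose log2 ratio was the highest of the 62, of Rpl13a and of Rps10 are given below with CACGTG (Polr2h, Rpl13a) or CCGGAAG (Rps10) in capitals. They lie at chr16:20717576-20717875 on the plus strand, chr7:45128696-45128995 on the minus strand and chr17:27635195-27635494 on the minus strand. A match is a description of the letters and not a bound site.
Polr2h: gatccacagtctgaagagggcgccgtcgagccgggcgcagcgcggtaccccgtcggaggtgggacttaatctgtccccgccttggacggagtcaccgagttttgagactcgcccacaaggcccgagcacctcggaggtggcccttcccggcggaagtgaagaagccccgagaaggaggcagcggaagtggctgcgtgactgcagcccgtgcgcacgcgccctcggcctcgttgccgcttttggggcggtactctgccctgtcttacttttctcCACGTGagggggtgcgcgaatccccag
Rpl13a: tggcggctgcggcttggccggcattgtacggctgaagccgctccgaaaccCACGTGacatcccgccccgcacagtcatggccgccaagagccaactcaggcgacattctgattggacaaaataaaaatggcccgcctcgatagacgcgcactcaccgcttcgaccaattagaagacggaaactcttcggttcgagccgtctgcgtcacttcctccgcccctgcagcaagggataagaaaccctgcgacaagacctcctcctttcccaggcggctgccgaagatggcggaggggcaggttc
Rps10: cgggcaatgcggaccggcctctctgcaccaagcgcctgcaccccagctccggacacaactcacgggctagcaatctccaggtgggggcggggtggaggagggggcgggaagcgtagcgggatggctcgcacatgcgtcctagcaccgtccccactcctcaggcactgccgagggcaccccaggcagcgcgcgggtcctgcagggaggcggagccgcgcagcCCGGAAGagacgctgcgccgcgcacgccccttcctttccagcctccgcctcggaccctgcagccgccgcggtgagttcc

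A further 10 members are copies that carry the name of a ribosomal protein or initiation factor gene with the suffix ps. Of these, 8 are annotated as pseudogenes in GENCODE M21, Rpl9-ps6 is annotated as protein coding, and Rps2-ps8 was matched only in RefSeq, as a pseudogene. Reads of such a copy and of its parent gene can hardly be told apart, so their values are uncertain. Eif4a-ps4, on the plus strand of chr1:60703932-60705149 in GRCm38, differs from the coding mRNA of Eif4a1, on the minus strand of chr11:69666936-69672423, at 1 of 1218 aligned bases. It had 976 CPM in KO cells and 729 CPM in WT cells, whereas Eif4a1, the RNA helicase that unwinds mRNA leaders, had 203.8 CPM in KO cells and 158.8 CPM in WT cells. Per kilobase of transcript, the copy had 801 CPM in KO cells and 598 CPM in WT cells, and the gene 115 CPM in KO cells and 89.5 CPM in WT cells. The copy held 82.7% of the sum of the pair in KO cells and 82.1% in WT cells. The coding stretch of 90 bases around the differing base, in capitals, is shown for the gene and its copy.
Eif4a1: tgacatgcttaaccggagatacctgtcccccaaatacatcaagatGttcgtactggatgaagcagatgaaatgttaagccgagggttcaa
Eif4a-ps4: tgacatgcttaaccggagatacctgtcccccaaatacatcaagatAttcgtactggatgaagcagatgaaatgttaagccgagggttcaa
Summed over the pair, the mean was 1179 CPM in KO cells and 887 CPM in WT cells, a log2 ratio of 0.41. The division of reads between gene and copy was nearly the same in both genotypes, and the sum can be read where the parts cannot.

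The division of reads was also nearly the same in both genotypes for the other pairs with both genes in the table. Rps10 and Rps10-ps1 each share sequence with 3 genes, Rpl17 with 13 and Rpl17-ps8 with 11, the partner included. The sums of these pairs can therefore still miss or include reads of other copies. Rps10-ps1, on the plus strand of chr3:95622278-95622772, differs from Rps10, on the minus strand of chr17:27630418-27636669, at 6 of 495 aligned bases and took 24.8% of the pair's reads in KO cells and 25.2% in WT cells. The copy was past the fold, with 22.1 CPM in KO cells and 14.7 CPM in WT cells, a log2 ratio of 0.59. The sum of the pair was 88.8 CPM in KO cells and 58.2 CPM in WT cells, a log2 ratio of 0.61. The coding stretch where the pair differs most has 3 differing bases, in capitals.
Rps10: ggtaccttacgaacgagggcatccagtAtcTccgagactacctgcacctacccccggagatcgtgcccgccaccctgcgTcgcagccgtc
Rps10-ps1: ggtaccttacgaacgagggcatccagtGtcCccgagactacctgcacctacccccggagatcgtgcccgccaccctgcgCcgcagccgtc
Rpl17-ps8 and Rpl17 differ at 2 of 620 aligned bases. The copy took 54.4% of the pair's reads in KO cells and 55.6% in WT cells, and their sum was 180 CPM in KO cells and 129.6 CPM in WT cells, a log2 ratio of 0.48.

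**Figure D3:**
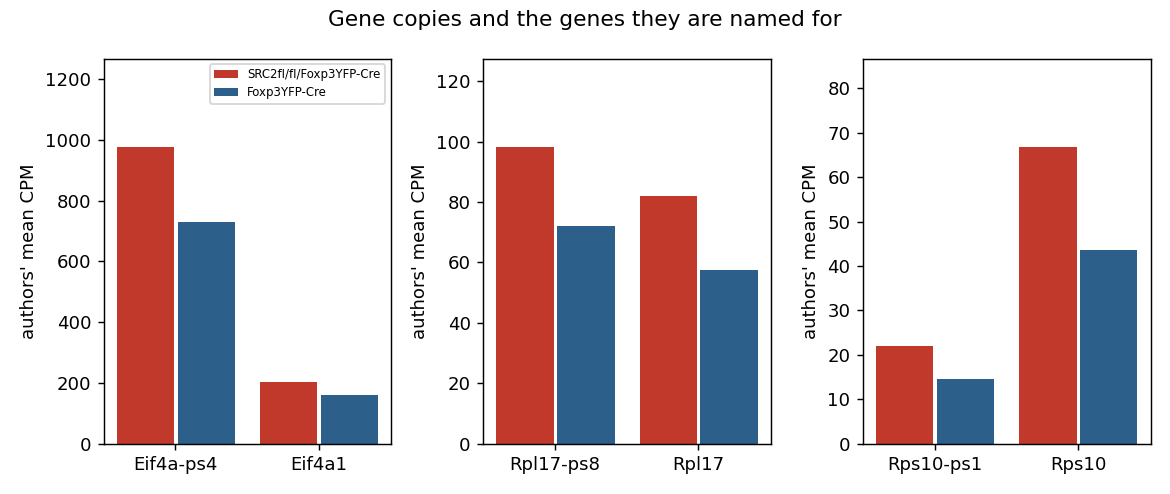
Authors' mean CPM (vertical axes, each from 0) of 3 gene copies and the genes they are named for, in KO cells (red) and WT cells (blue). Eif4a-ps4 stands far above Eif4a1 in both genotypes, with 82.7% of the pair's CPM in KO cells and 82.1% in WT cells, and each pair is higher in KO cells.

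Of the copies whose parent gene is outside the table, Rpl9-ps6 had 851 CPM in KO cells and 739 CPM in WT cells, and it differs from Rpl9 at 1 of 692 aligned bases. Rps2-ps10, Rps2-ps6 and Rps2-ps8 had log2 ratios of 0.27, 0.23 and 0.61, and the last was past the fold, with 25.2 CPM in KO cells and 16.5 CPM in WT cells. Rps4x-ps had a log2 ratio of 0.42. The only copies with a lower mean were also those with the fewest reads. Rpl21-ps15 had 5.78 CPM in KO cells and 10.7 CPM in WT cells, a log2 ratio of -0.88. Rpl5-ps1 had 2.60 CPM in KO cells and 4.48 CPM in WT cells, a log2 ratio of -0.79. They made up 2 of the 3 members past the fold on the lower side, so that side holds no gene of a ribosomal protein itself.

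Shared sequence reached beyond the named copies. Of the 61 members with a transcript, 24 shared at least 50% of it with other annotated genes, at 97% identity or more over at least 100 bases. Of these 24, 22 were higher, beside 69.2% of all rows. Among the 37 that shared less, 33 were higher, with a median log2 ratio of 0.31. Some of the 37 still share a large stretch, such as Rpl17 and Polr2h, each with 46.8% of the transcript.

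Among the 9 initiation genes, 7 were higher (77.8%) and 2 were lower, beside 69.2% higher and 30.8% lower among all rows. None was past the fold of 1.4. Eif1a, which supports scanning for the start codon, had 108 CPM in KO cells and 87.0 CPM in WT cells, a log2 ratio of 0.31. Eif2s3x, the X-linked gamma subunit of the factor that brings the initiator tRNA, took the most reads of this group, with 260 CPM in KO cells and 225 CPM in WT cells. Eif2b5, the catalytic subunit of its exchange factor, had a log2 ratio of 0.25. Eif3j1 and Eif3j2, near-identical genes for a loosely bound subunit of eIF3, had 0.25 and 0.32, and the whole transcript of Eif3j2 is shared with another gene. Eif6, which keeps the ribosomal subunits apart and acts in 60S maturation, had the smallest positive log2 ratio, 0.19.

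The lower genes were Eif2ak3 and Eif4enif1. Eif2ak3 encodes PERK, the kinase of the endoplasmic reticulum that shuts off initiation through eIF2 under stress, and had 76.9 CPM in KO cells and 90.6 CPM in WT cells, a log2 ratio of -0.24. Eif4enif1 encodes 4E-T, which binds the cap-binding factor eIF4E and represses its mRNAs, and had 114 CPM in KO cells and 129 CPM in WT cells, a log2 ratio of -0.18. Both have long transcripts, of 4513 and 3712 bases, in the length class where 66.8% of the other rows were higher.

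All 3 elongation genes were higher, beside 69.2% of all rows. Eef1g, a subunit of the exchange factor of eEF1A, had 505 CPM in KO cells and 426 CPM in WT cells, a log2 ratio of 0.25. Eef1e1, a scaffold of the complex of aminoacyl-tRNA synthetases, was past the fold, with 54.4 CPM in KO cells and 35.8 CPM in WT cells, a log2 ratio of 0.60. Eef1akmt1, a lysine methyltransferase of eEF1A, had one of 0.41.

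**Figure D4:**
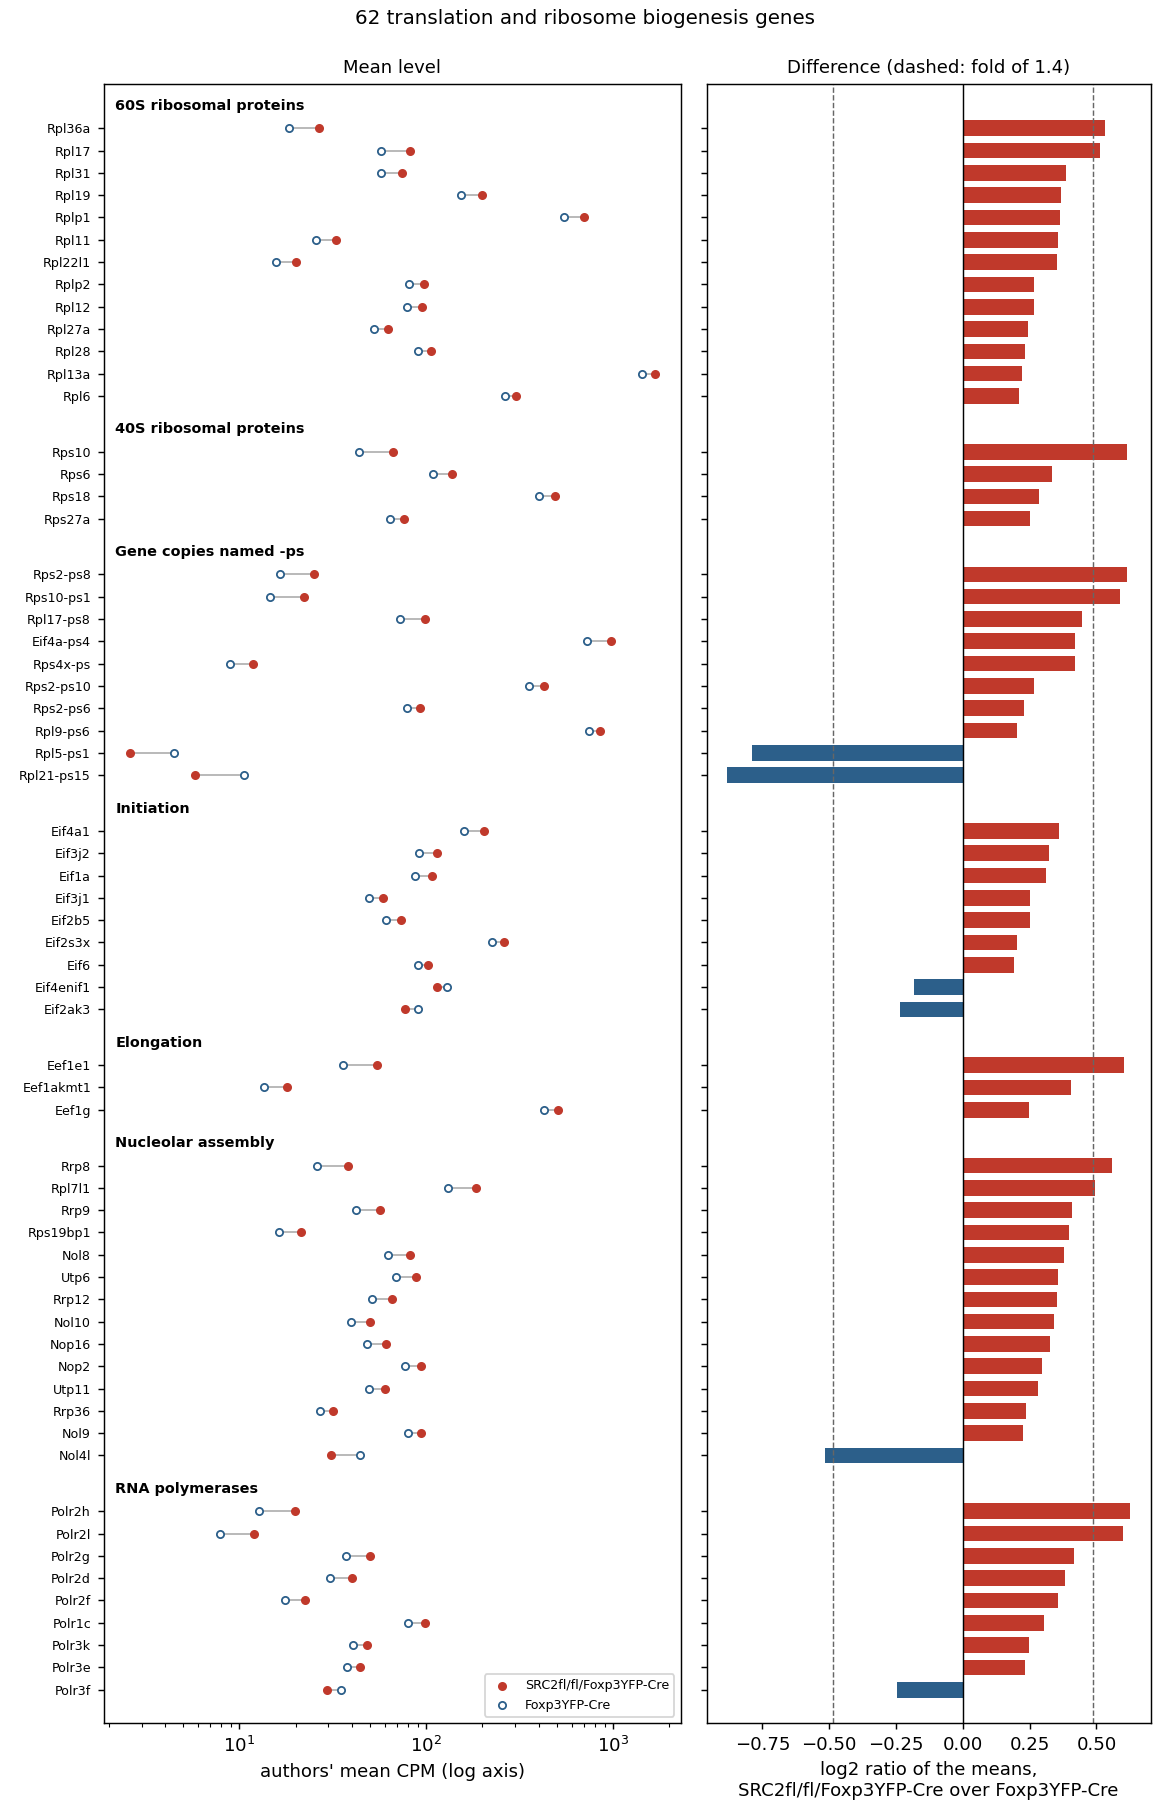
The 62 genes by role, with the authors' mean CPM in KO cells (filled red) and WT cells (open blue) on a log axis at left and the log2 ratio of the means at right, where dashed lines mark a fold of 1.4. The filled point lies to the right of the open one in 56 of the 62 genes, and the bars reach from -0.88 for Rpl21-ps15 to 0.63 for Polr2h.

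Of 14 genes grouped as nucleolar assembly genes by name, 13 were higher, beside 69.2% of all rows. Rpl7l1, a relative of the 60S protein gene Rpl7, took the most reads, with 184.9 CPM in KO cells and 131 CPM in WT cells, a log2 ratio of 0.49. Rrp8, a nucleolar methyltransferase of ribosomal RNA, had 38.2 CPM in KO cells and 25.9 CPM in WT cells, a log2 ratio of 0.56. These were the only higher genes of the group past the fold. Factors of the small subunit processome, the particle that makes the first cuts in the precursor RNA, lay close together. The log2 ratio was 0.41 for Rrp9, a protein of the U3 particle, 0.35 for Utp6, 0.34 for Nol10, 0.28 for Utp11 and 0.24 for Rrp36. Rrp12, which acts in subunit maturation and export, had 0.35. Factors of the large subunit were in the same range, with 0.38 for Nol8, 0.32 for Nop16, 0.30 for Nop2, a cytosine methyltransferase of ribosomal RNA, and 0.23 for Nol9, a polynucleotide kinase. Rps19bp1, a binding partner of Rps19, had 0.40.

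The exception was Nol4l. It had 30.9 CPM in KO cells and 44.2 CPM in WT cells, a log2 ratio of -0.52, and was the third member past the fold on the lower side. The symbol marks a relative of Nol4 and not a ribosome assembly factor, and its transcript of 6399 bases lies in the longest class.

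Of 9 RNA polymerase genes, 8 were higher, beside 69.2% of all rows. The 5 genes with Polr2 symbols had the largest log2 ratios. Polr2h, Polr2l and Polr2f encode small subunits shared by the 3 nuclear RNA polymerases. Polr2h had 19.8 CPM in KO cells and 12.8 CPM in WT cells, a log2 ratio of 0.63, and Polr2l had 12.0 CPM in KO cells and 7.89 CPM in WT cells, a log2 ratio of 0.60. Both were past the fold, and Polr2f had 0.36. With 5 CPM added to each mean, neither Polr2h nor Polr2l reached the fold. Polr2g and Polr2d, which form the stalk of RNA polymerase II and therefore serve mRNA and not ribosomal RNA, had 0.42 and 0.38.

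Polr1c, a subunit of RNA polymerases I and III, took the most reads of the group, with 98.5 CPM in KO cells and 79.8 CPM in WT cells, a log2 ratio of 0.30. The subunits of RNA polymerase III went both ways. Polr3k had a log2 ratio of 0.25 and Polr3e one of 0.23, whereas Polr3f had 29.5 CPM in KO cells and 35.0 CPM in WT cells, a log2 ratio of -0.25.

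Genes of the same pathway that the symbols do not catch were counted from lists. Of 102 other ribosome assembly factors, 28 were in the table, of which 27 were higher and 1 was lower, beside 69.2% higher among all rows. Their median log2 ratio was 0.31 and their median transcript length 2701 bases. Past the fold, 1 of the 28 was higher, beside 26.3% of all rows at any CPM. This was Rpp38, a protein of the RNase P and MRP particles, with 9.30 CPM in KO cells and 4.78 CPM in WT cells. Pop1, of the same particles, had a log2 ratio of 0.41, Sbds, which releases Eif6 from the 60S subunit, one of 0.40, and Rpf2, of the 5S particle, one of 0.39. The lower gene, Riok1, a kinase of 40S maturation, had -0.25. The 28 factors spanned log2 ratios from -0.25 to 0.96, and the 14 nucleolar genes chosen by symbol from -0.52 to 0.56.

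Smaller lists were mixed. Of 40 annotated genes listed for aminoacyl-tRNA synthetases and their complex, 5 were in the table and all were higher, beside 69.2% of all rows. Among them is the scaffold Eef1e1, already counted as a member, and the other 4 encode synthetases. Mars2, the mitochondrial methionine enzyme, had a log2 ratio of 0.63, Yars2 one of 0.39 and Rars2 one of 0.36. Of 32 factors of RNA polymerases I and III, 5 were in the table, 4 higher and 1 lower. Gtf3c4, of the RNA polymerase III factor TFIIIC, had 0.62, Cd3eap, a subunit of RNA polymerase I, 0.37, Gtf3c3 0.34 and Taf1d, of the RNA polymerase I selectivity factor, -0.43. Of 58 genes of signaling to translation, 7 were in the table, 4 higher and 3 lower, beside 69.2% higher and 30.8% lower among all rows. Ddit4, an inhibitor of mTORC1, had 261 CPM in KO cells and 130 CPM in WT cells, a log2 ratio of 1.00. Pelo, which rescues stalled ribosomes, had 0.47, Mnt, a repressor that opposes Myc, -0.40 and Sesn1, an inhibitor of mTORC1 signaling, -0.30. Inhibitors of mTORC1 thus stood on both sides.

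Genes on a list of hosts of small nucleolar RNAs, a class that includes the guides of ribosomal RNA modification, mostly went the other way. Of 16 annotated, 5 were in the table, and 4 were lower, all past the fold, beside 14.1% of all rows. None of the 5 was a member, and whether members also host such RNAs was not examined. Snhg6 had 12.5 CPM in KO cells and 80.7 CPM in WT cells, a log2 ratio of -2.69. The log2 ratio was -1.51 for Snhg14, which stayed under 5 CPM, -0.61 for Snhg17 and -0.55 for Snhg15. Zfas1 was higher, with 110.6 CPM in KO cells and 80.5 CPM in WT cells, a log2 ratio of 0.46. Whether these reads came from the host RNAs or from the small RNAs within them was not tested.

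**Figure D5:**
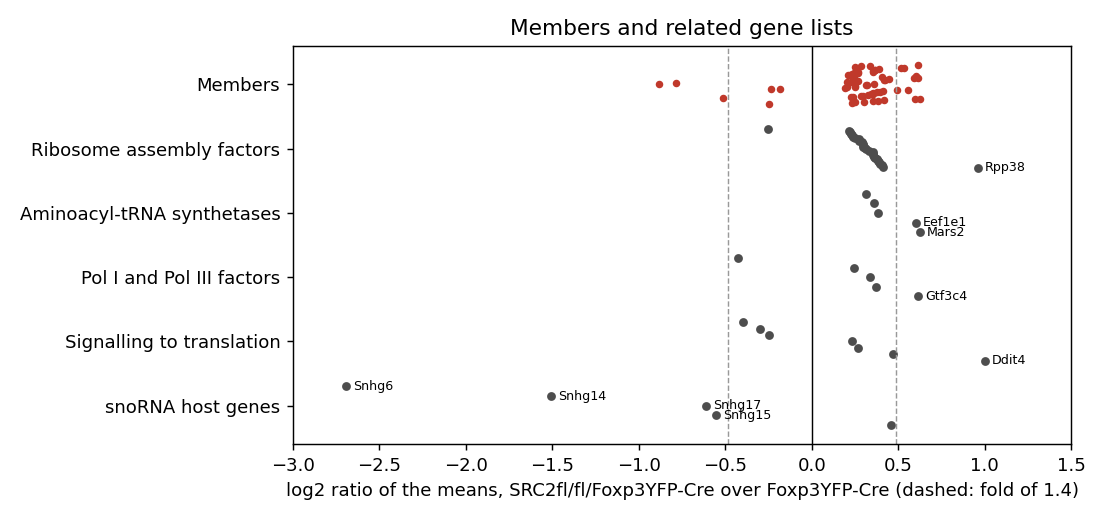
Log2 ratio of mean CPM, KO over WT cells (horizontal axis, dashed lines at a fold of 1.4) for the 62 members (red) and the genes of 5 related lists in the table (grey), 1 point a gene, spread vertically for sight only. The 28 assembly factors form a column right of 0 with Riok1 alone to the left, and 4 of the 5 small nucleolar RNA host genes lie left of the lower dashed line.

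Ncoa2 had 127 CPM in KO cells and 164 CPM in WT cells. Foxp3, the defining factor of Tregs, had 42.4 CPM in KO cells and 82.5 CPM in WT cells. Of 17 T cell markers 1 was in the table, Cd28, with a log2 ratio of -0.51, and the others could not be checked in rows selected by P value. Of 55 markers of CD8 T and NK, B, myeloid, dendritic and mast cells, 11 were in the table and all were higher, beside 69.2% of all rows. The log2 ratios of the 11 ran from 0.43 to 7.19. The paper set a minimum total for expressed genes, and the smallest sum over the 6 libraries was 10.02 CPM. H2-Aa, H2-Ab1, Lyz2, Il1rl1, Mcpt1 and Mcpt2 had at most 1.11 CPM in WT cells and could pass only through KO cells. For these genes the direction was thus fixed by the filter, and the count of 11 is no independent result. Of 14 genes on the B cell list, the 4 in the table were Cd74, H2-Eb1, H2-Aa and H2-Ab1, which are not specific to B cells. Their summed means were 103.7 CPM in KO cells and 62.4 CPM in WT cells, of which Cd74 held 75.3 and 55.9 CPM. The summed means of the 4 myeloid and dendritic cell markers were 101.3 CPM in KO cells and 11.4 CPM in WT cells. Those of the 3 genes on the mast cell and basophil list were 22.1 CPM in KO cells and 1.85 CPM in WT cells. None of the 8 markers of CD8 T and NK cells was in the table. The part of other cell types, or of a lower share of Foxp3-expressing cells, in the results above was not tested.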

How the data were processed

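RNA-seq libraries of CD4+ cells (3 per genotype) were processed by the authors in Partek Flow: reads were aligned to GRCm38, quantified with the Partek E/M algorithm and normalized to CPM with 0.001 added to each value. Aligner, annotation and versions: not given in the sources used here. Means of a genotype are what the deposited CPM values hold. A deposited column of totals equals 3 times the sum of both means (relative tolerance 1e-06) and is not raw counts. The deposited ratios, fold changes, p-values and step-up values of the authors' own comparison were not used, except that the p-value column was read to find that every row lies below 0.05.

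Log2 ratios of the means were computed for all 2387 rows with Python 3.11.15, numpy 2.4.6 and pandas 2.3.3. Counts of genes past a fold of 1.4 replaced a test, because no value per library was analysed. Members, roles and lists were chosen with earlier results of these data known. Both means are given for members past the fold, lower members and the most read member of each role. Of each list, up to 4 genes of at least 5 CPM with the largest log2 ratios are named. Riok1 and Snhg14 and some further members were singled out after their values were seen. Lengths are those of the longest protein-coding transcript, or else the longest, in GENCODE M21 (GRCm38). Shared sequence was found with BLAST 2.17.0, pairs were aligned with Biopython 1.88, and promoter windows are from RefSeq (GRCm38.p6). Counting, motif search and alignment steps were tested on simulated data. Other folds, offsets, a minimum level, centring and narrower member lists were tried as alternatives.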

Additional observations from a re-analysis of the deposited data

How the results depend on the processing

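Because the values are means of a genotype, leaving out a library could not be run, and no paired analysis was possible because the means carry no replicate numbers. The 10 higher and 3 lower members past a fold of 1.4 became 40 higher at a fold of 1.2, 20 higher at 1.3, and 0 higher and 0 lower at 2. With 5 CPM added they were 3 higher and 1 lower. Centred on the median of all rows, whose log2 ratio of 0.33 is that of rows selected by P value, 0 were higher and 6 lower past the fold, 30 were higher in direction and the median was -0.0051. Without the genes of Polr2 symbols, the copies, Nol4l, Rps19bp1, Eef1akmt1, Eef1e1, Eif2ak3 and Eif4enif1, 41 members remained, of which 40 were higher in direction, 5 higher and 0 lower past the fold. That choice of roles removes 5 of the 6 lower members, so it says nothing about the stability of the direction. Without members sharing at least 50% of their transcript, an alternative chosen after seeing the data, 34 of 38 were higher and 1 was lower past the fold, with Rps2-ps8, whose sharing was not measured, among the 38. Of 32 alternative values, 18 kept their direction, with counts within 1.5 times. Another 13 were counts that moved further, among them 34 of 38 higher, where fewer members were kept. The remaining 1, the median under centring, reversed. The unknown depth of the libraries means that the precision of each mean could not be given.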

Other observations

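In the GENCODE M21 annotation, 224 protein-coding genes match the same symbols, and 53 of them (23.7%) were in the table, beside 9.93% of all 21923 protein-coding genes. The 21923 include genes with too few reads in these cells to enter the table. These shares were not compared at equal level, so they do not show that these families differ more often. In the table were 4 of 8 Rrp genes, 4 of 10 Nol genes, 13 of 54 Rpl genes (24.1%), 5 of 34 Rps genes (14.7%) and 2 of 14 genes with Eif3 symbols (14.3%). The Rps and Rpl counts include genes grouped here with the nucleolar genes and a copy annotated as protein coding.

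By level, 14 of the 15 members with a mean of at least 100 CPM were higher in KO cells, beside 59.5% of all 341 such rows, and 34 of the 37 members between 20 and 100 CPM were, beside 72.1%. Below 20 CPM, 8 of 10 members were higher, beside 69.1% of all such rows. Among rows of at least 20 CPM in the shortest length class, all 29 members were higher, beside 194 of the other 230 (84.3%), and the higher members had a median log2 ratio of 0.30, beside 0.32 for the other higher rows.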
